A study of Saccharomyces cerevisiae and Saccharomyces cerevisiae x Saccharomyces paradoxus with 20 samples.

Results

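The genes examined here encode the mitochondrial respiratory chain and the ATP synthase of yeast. They are 38 listed genes: 9 subunits of cytochrome c oxidase (complex IV), 9 of the cytochrome bc1 complex (complex III), both cytochromes c, the 4 subunits of succinate dehydrogenase (complex II), 11 subunits of the ATP synthase and the 3 single-subunit NADH dehydrogenases. They were taken by gene identifier from the RNA count tables of the UWOPS05_217_3 cross, where 33 of the 38 were among the 4995 genes counted. COX12, COR1, QCR9, CYC1 and ATP17 were not analysed for RNA here. Nucleosome-free regions (NFRs) that overlapped the 300 bp upstream of a listed gene's start were taken from the FAIRE tables. This gave 1 NFR for each of 25 genes, out of 3498 NFRs in all, and 23 genes had both an NFR and RNA counts.

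The study compared chromatin accessibility and transcript levels between Saccharomyces cerevisiae and its sister species Saccharomyces paradoxus. The groups used here were haploid UWOPS05_217_3 (a wild isolate of S. cerevisiae), haploid DBVPG1373 (a wine strain of S. cerevisiae, FAIRE only here), haploid CBS432 (S. paradoxus), and the diploid hybrids UWOPS05_217_3-CBS432 (FAIRE and RNA) and DBVPG1373-CBS432 (FAIRE only here). All groups were grown in YEPD, a rich medium with glucose, and harvested in log phase. There were 2 biological replicates per group and assay, and S. paradoxus stood on 1 strain, as did S. cerevisiae for RNA, while for FAIRE S. cerevisiae stood on 2. FAIRE recovers DNA that is not crosslinked to protein, so more FAIRE counts mean more open chromatin. In the hybrid, reads were assigned to the S. cerevisiae or the S. paradoxus allele, and both alleles then sit in the same nucleus.

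Respiration passes electrons from NADH and succinate through ubiquinone, complex III, cytochrome c and complex IV to oxygen. S. cerevisiae has no proton-pumping complex I, and single-subunit NADH dehydrogenases take its place. The proton gradient made by complexes III and IV drives the ATP synthase. In glucose medium S. cerevisiae ferments and transcribes these genes below their level on non-fermentable carbon, largely through less activity of the CCAAT-binding Hap2/3/4/5 complex, whose limiting subunit is HAP4. A pair of subunits comes in alternative forms: COX5A and CYC1 are used with ample oxygen, and COX5B and CYC7 are the forms of low oxygen in S. cerevisiae.

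RNA tables summed to between 51389633 and 106845771 counts in haploids and between 36188856 and 54971715 counts per hybrid allele. FAIRE tables summed to between 2561228 and 4198250 counts in haploids and between 1339393 and 2036883 counts per hybrid allele. Values below are counts per 1000000 counts of the table total (CPM). For a hybrid allele the base is the mean of both alleles' totals in that library. The study summed counts across each gene or NFR and left out sites of insertions or deletions between the species. Whether a read could be counted at several sites is not given in the sources used here. Counts are therefore not taken as numbers of reads, which may be smaller. The 5 haploid-specific genes that were counted (of 8 listed) were all lower in the hybrid for both alleles, as the ploidy labels state. CBS432 carries the label of S. cerevisiae in the sample records and is treated as S. paradoxus, as in the study's design.

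Respiratory genes were among the more abundant transcripts. Per kilobase of gene, the median listed gene stood at 559 CPM in UWOPS05_217_3 against 91.9 CPM for all genes, and at 613 CPM in CBS432 against 89.2 CPM. The 499 highest genes per kilobase held 22 of the 33 in UWOPS05_217_3 and 25 in CBS432. The 33 genes took between 1.19% and 1.24% of all RNA counts in the UWOPS05_217_3 libraries and between 1.38% and 1.40% in the CBS432 libraries. The low end was made of the alternative forms: COX5B at 4.07 CPM per kilobase in UWOPS05_217_3 and 21.1 in CBS432, NDE2 at 2.53 and 8.53, and CYC7 at 54.4 and 28.5. Levels per kilobase also depend on how many sites of a gene were counted, which is not given in the sources used here.

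**Figure D1:**
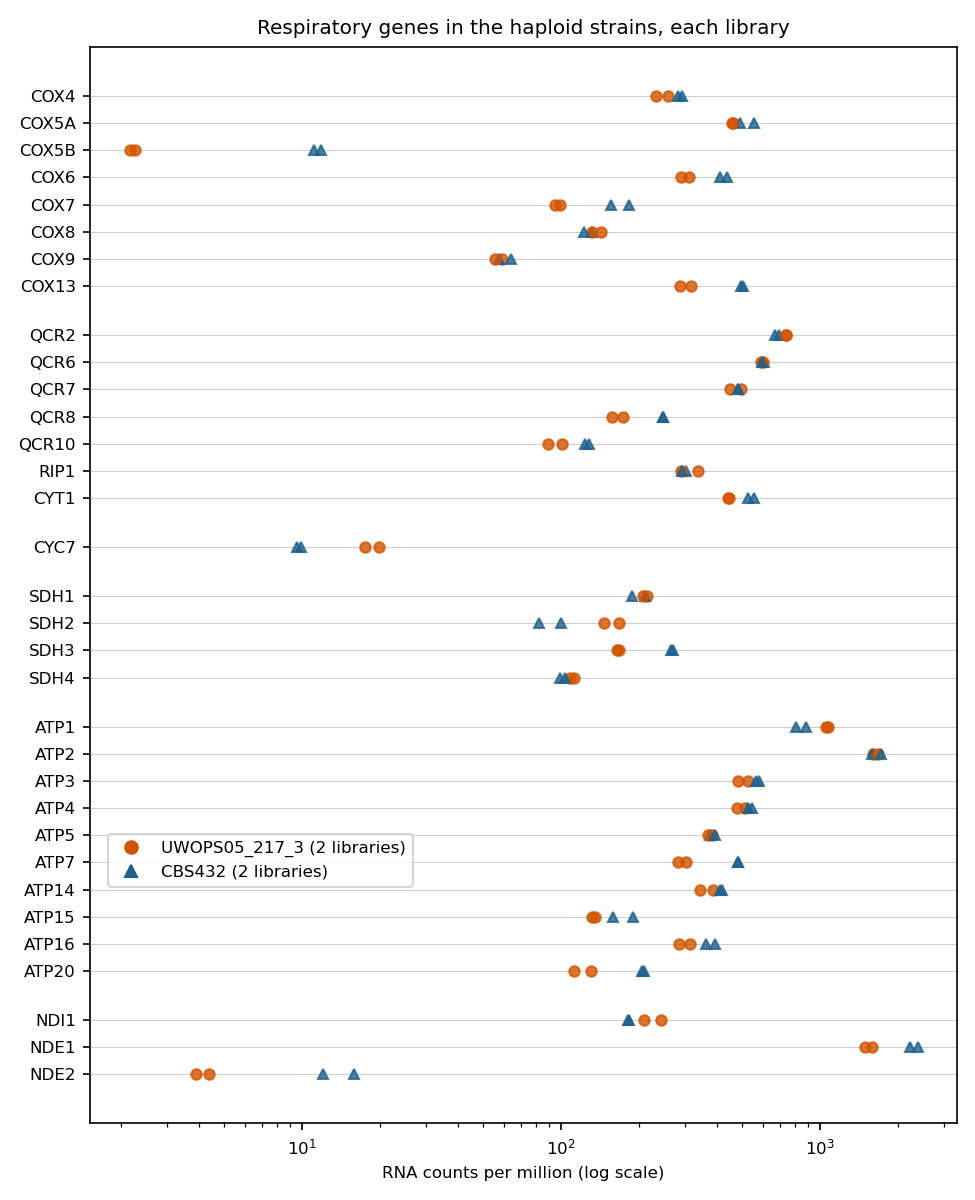
RNA level in CPM (log axis) of the 33 genes in each haploid library, with circles for UWOPS05_217_3 and triangles for CBS432 (2 libraries each), grouped by complex. COX5B and NDE2 lie lowest and further left in UWOPS05_217_3, while CYC7 and SDH2 lie further right in UWOPS05_217_3.

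The first question was whether these genes differ in level between the species. In haploids, 4 of the 33 genes were higher in UWOPS05_217_3 (CYC7, SDH2, ATP1 and NDI1) and 15 were lower than in CBS432, and 14 did not pass the test (edgeR quasi-likelihood test, adjusted p under 0.05 over all genes). That is 57.6% of the listed genes, beside 54.6% of all genes tested, with 28.2% of all genes higher and 26.4% lower. The median log2 difference was -0.20 over the 33 genes and 0.01 over all genes. The 15 lower genes were 5 of 8 complex IV genes, 3 of 7 complex III genes, 4 of 10 ATP synthase genes, SDH3, NDE1 and NDE2. With each library left out in turn, 13 of the 19 calls held every time, and between 13 and 18 genes were called. The 4 higher genes fell to 2, CYC7 and SDH2, without UWOPS05_217_3 replicate 1 or without CBS432 replicate 1 or 2. Genes that rise when glucose runs out also differed between these strains, with values given at the end. In bulk cultures, fewer expressing cells and less RNA per cell cannot be told apart.

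The second question was whether the difference is carried by the alleles themselves. In the UWOPS05_217_3-CBS432 hybrid, 10 of the 33 genes had more RNA from the S. cerevisiae allele, 16 had more from the S. paradoxus allele and 7 did not pass (edgeR, hybrid library as a block). This is 78.8% of the listed genes, beside 68.6% of all genes (31.8% higher, 36.7% lower), and the median log2 allele ratio was -0.07 against -0.03 over all genes. Without the library block 5 genes were called for the S. cerevisiae allele in place of 10. The third question was whether the ratio between haploid strains differs from the ratio between alleles, which the study calls a trans effect. The haploid ratio exceeded the allele ratio at 5 genes and fell short of it at 4, and 24 did not pass. This is 27.3% of the listed genes beside 25.9% of all genes (15.3% and 10.6%). None of these 9 calls held under every alternative. Without the replicate block and with all libraries kept, 4 held (CYC7, NDE2, SDH4 and ATP16) and 5 were lost. The fits with a library left out also have no replicate block, so they change both choices at once, and between 0 and 5 genes were called in them. How the replicate block and the scaling move them is given in the closing section.

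**Figure D2:**
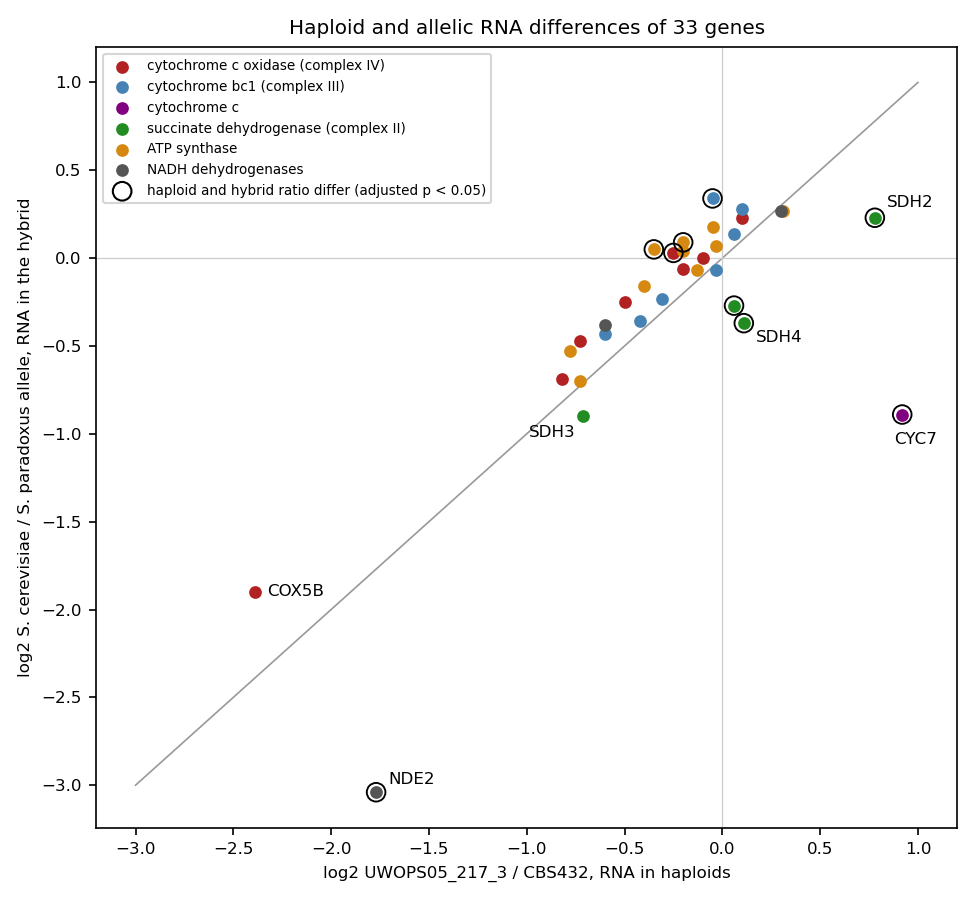
Log2 RNA ratio of haploid UWOPS05_217_3 over CBS432 (horizontal) against the log2 ratio of the S. cerevisiae over the S. paradoxus allele in the hybrid (vertical) for 33 genes, coloured by complex, with the line of equal ratios. COX5B and NDE2 lie far below 0 on both axes, CYC7 lies at 0.92 and -0.89, and rings mark the 9 genes whose 2 ratios differ (edgeR, adjusted p under 0.05).

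The NADH dehydrogenases pass electrons from NADH to ubiquinone, NDE1 and NDE2 from the cytosolic side of the inner membrane and NDI1 from the matrix side. NDE1 (YMR145C, chrXIII:554793-556475, R64) was the most abundant of them, with 1594 and 1486 CPM in haploid UWOPS05_217_3 and 2218 and 2382 CPM in CBS432. In the hybrid its S. cerevisiae allele stood at 1832 and 1727 CPM and its S. paradoxus allele at 2355 and 2281 CPM. The S. paradoxus form was thus higher in every library, in haploids (log2 -0.60 ± 0.12 SE, edgeR adjusted p = 0.00304) and between alleles (-0.38 ± 0.02, adjusted p = 8.29e-37). Under the alternative fits the adjusted p between alleles was at most 0.00244.

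NDE2 (YDL085W, chrIV:303211-304848), the minor external enzyme, showed the widest allelic difference of the 33 genes. Haploid UWOPS05_217_3 had 4.38 and 3.90 CPM and CBS432 15.9 and 12.1 CPM. The S. cerevisiae allele had 1.28 and 1.40 CPM in the hybrid, and the S. paradoxus allele 10.2 and 11.9 CPM. No S. cerevisiae value reached a S. paradoxus value, and the S. cerevisiae allele rested on 70 and 51 counts. The log2 ratio was -1.77 ± 0.22 in haploids (3.41-fold, edgeR adjusted p = 0.0004) and -3.04 ± 0.35 between alleles (8.23-fold, adjusted p = 2.55e-14). The ratios differed by 1.30 ± 0.35 (adjusted p = 0.0255), a call that held without the replicate block (adjusted p = 0.0379) and was lost with each of the 6 libraries also left out in turn (1.11 to 1.50, adjusted p between 0.0513 and 0.17). The S. cerevisiae allele itself was lower in the hybrid than in the haploid, by 1.54 on the log2 scale (log2 -1.54 ± 0.32, adjusted p = 0.0115), which was lost without haploid replicate 1 (adjusted p = 0.0703) or replicate 2 (adjusted p = 0.0571). NDE1 and NDE2 are paralogs, and how reads that fit both were treated is not given in the sources used here.

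NDI1 (YML120C, chrXIII:28266-29807) went the other way. Its levels were 242 and 209 CPM in UWOPS05_217_3, 183 and 180.5 CPM in CBS432, 176 and 193 CPM for the S. cerevisiae allele and 144 and 163 CPM for the S. paradoxus allele. Within each hybrid library the S. cerevisiae allele was higher (log2 0.27 ± 0.06, edgeR adjusted p = 3.99e-05). The haploid ratio was 0.30 ± 0.09 (adjusted p = 0.0238), a call lost without UWOPS05_217_3 replicate 1 (adjusted p = 0.0832) and without CBS432 replicate 1 (adjusted p = 0.136) or 2 (adjusted p = 0.112).

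Succinate dehydrogenase oxidizes succinate in the citric acid cycle and feeds ubiquinone. Its 4 genes did not move as a block between the strains: SDH2 was higher in UWOPS05_217_3, SDH3 was lower, and SDH1 and SDH4 did not pass. SDH2 (YLL041C, chrXII:53131-53931), the iron-sulfur subunit, had 168 and 147 CPM in UWOPS05_217_3 and 99.8 and 82.1 CPM in CBS432 (log2 0.78 ± 0.12, edgeR adjusted p = 0.00085). The alleles in the hybrid were closer, with 96.3 and 113 CPM from S. cerevisiae and 79.0 and 101 CPM from S. paradoxus (0.23 ± 0.08, adjusted p = 0.00809, lost without the library block with adjusted p = 0.199), and they overlapped across libraries but not within one.

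SDH3 (YKL141W, chrXI:179667-180263), the cytochrome b subunit in the membrane, had 165 and 167 CPM in UWOPS05_217_3 and 266 and 270.4 CPM in CBS432. Its alleles were at 138 and 143 CPM (S. cerevisiae) and 246 and 278 CPM (S. paradoxus). The S. paradoxus excess was present in both settings, at log2 -0.71 ± 0.08 in haploids (edgeR adjusted p = 0.000228) and -0.90 ± 0.06 between alleles (adjusted p = 3.37e-34). SDH1, the flavoprotein subunit, and SDH4, a membrane anchor, were lower from the S. cerevisiae allele (log2 -0.27 and -0.37, the first lost without the library block with adjusted p = 0.0571) without a called difference in haploids (0.06 and 0.11). The haploid ratio accordingly exceeded the allele ratio at SDH2 (by 0.57 ± 0.10, adjusted p = 0.00491), SDH4 (0.49 ± 0.10, adjusted p = 0.00787) and SDH1 (0.35 ± 0.09, adjusted p = 0.0173), and the value at SDH3 was 0.21. Without the replicate block, all libraries kept, the calls of SDH2 (adjusted p = 0.0917) and SDH1 (adjusted p = 0.147) were lost and that of SDH4 held (adjusted p = 0.0214). With a library left out as well, adjusted p lay between 0.0761 and 0.261 for SDH2 and between 0.146 and 0.372 for SDH1, and SDH4 was lost in 5 of 6 cases (between 0.0272 and 0.185, held without UWOPS05_217_3 replicate 1). SDH1, SDH3 and SDH4 have paralogs elsewhere in the genome, so their counts carry the same doubt about shared reads.

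Complex III passes electrons from ubiquinol to cytochrome c and pumps protons. Of its 7 measured genes, QCR8, QCR10 and CYT1 were lower in UWOPS05_217_3 and none was higher (42.9%, beside 54.6% of all genes, 28.2% higher and 26.4% lower). QCR8 and QCR10, small structural subunits, fell by 0.60 and 0.42 on the log2 scale between haploids (edgeR), and by 0.43 and 0.36 between alleles. CYT1 encodes cytochrome c1. It stood at log2 -0.31 in haploids, a call lost without CBS432 replicate 1 (adjusted p = 0.124) or 2 (adjusted p = 0.0867), and at -0.23 between alleles. QCR6, an acidic subunit, lay between 592 and 606 CPM in all 4 haploid libraries and passed in neither comparison.

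In this complex QCR2, QCR7 and RIP1 had more RNA from the S. cerevisiae allele. Between alleles 85.7% of its genes were called in either direction, beside 68.6% of all genes. QCR2, a core subunit (YPR191W, chrXVI:919381-920487), had 846 and 851 CPM from the S. cerevisiae allele and 698 and 696 CPM from the S. paradoxus allele (log2 0.28 ± 0.03, edgeR adjusted p = 2.9e-15). Haploids were at 737 and 737 CPM against 692 and 668 CPM, a difference that did not pass (0.10 ± 0.09, adjusted p = 0.395). QCR7 (YDR529C, chrIV:1496165-1496548), another small subunit, had the largest S. cerevisiae excess between alleles, 494 and 516 CPM against 390.3 and 409.6 CPM (0.34 ± 0.04, adjusted p = 2.51e-14). Its haploids overlapped, at 496 and 448 CPM against 483 and 483 CPM (-0.05 ± 0.09, adjusted p = 0.68). The QCR7 ratios differed by -0.37 ± 0.08 (adjusted p = 0.0122), which was lost without the replicate block, all libraries kept (adjusted p = 0.0511). With no block and a library left out, it passed without UWOPS05_217_3 replicate 1 (adjusted p = 0.0237) and in none of the other 5 cases (adjusted p between 0.094 and 0.274). The Rieske iron-sulfur protein RIP1 was higher from the S. cerevisiae allele by log2 0.14, with 0.03 and 0.26 in the 2 hybrid libraries (lost in DESeq2 with adjusted p = 0.0543 and without the library block with adjusted p = 0.135), and did not pass in haploids (0.06).

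Cytochrome c carries electrons from complex III to complex IV. Only CYC7, the minor isoform (YEL039C, chrV:79636-79977), had RNA counts here, and it was the gene whose ratio changed most between haploids and hybrid. Haploid UWOPS05_217_3 had 19.8 and 17.4 CPM and CBS432 9.90 and 9.57 CPM (log2 0.92 ± 0.17, edgeR adjusted p = 0.00254). In the hybrid the S. cerevisiae allele had 3.62 and 3.74 CPM, and the S. paradoxus allele 4.91 and 9.57 CPM. These hybrid values rest on 136 to 348 counts per table. CYC1 and CYC7 are paralogs, and how reads that fit both were treated is not given in the sources used here.

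The order of the species therefore turned over at CYC7: S. cerevisiae was higher in haploids, and its allele was lower in both hybrid libraries. The allele ratio was -0.89 ± 0.35 (edgeR adjusted p = 0.0179), and the 2 S. paradoxus values lay further apart than the alleles of hybrid replicate 1. The call was lost in DESeq2 (adjusted p = 0.0559) and without the library block (adjusted p = 0.0586). The difference of the ratios was 1.82 ± 0.37 (adjusted p = 0.00744). It held without the replicate block (adjusted p = 0.0169) and was lost when CBS432 replicate 2 (1.88, adjusted p = 0.0612) or hybrid replicate 2 (1.38, adjusted p = 0.0756) was also left out. Most of the change was in the S. cerevisiae allele, which was 4.76-fold lower in the hybrid than in the haploid (log2 -2.25 ± 0.20, adjusted p = 0.00017, called under every alternative), while the S. paradoxus allele did not pass (-0.42 ± 0.33, adjusted p = 0.515). Haploid and hybrid differ in ploidy, in hybrid state and in mapping to both genomes together, and these cannot be told apart.

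**Figure D3:**
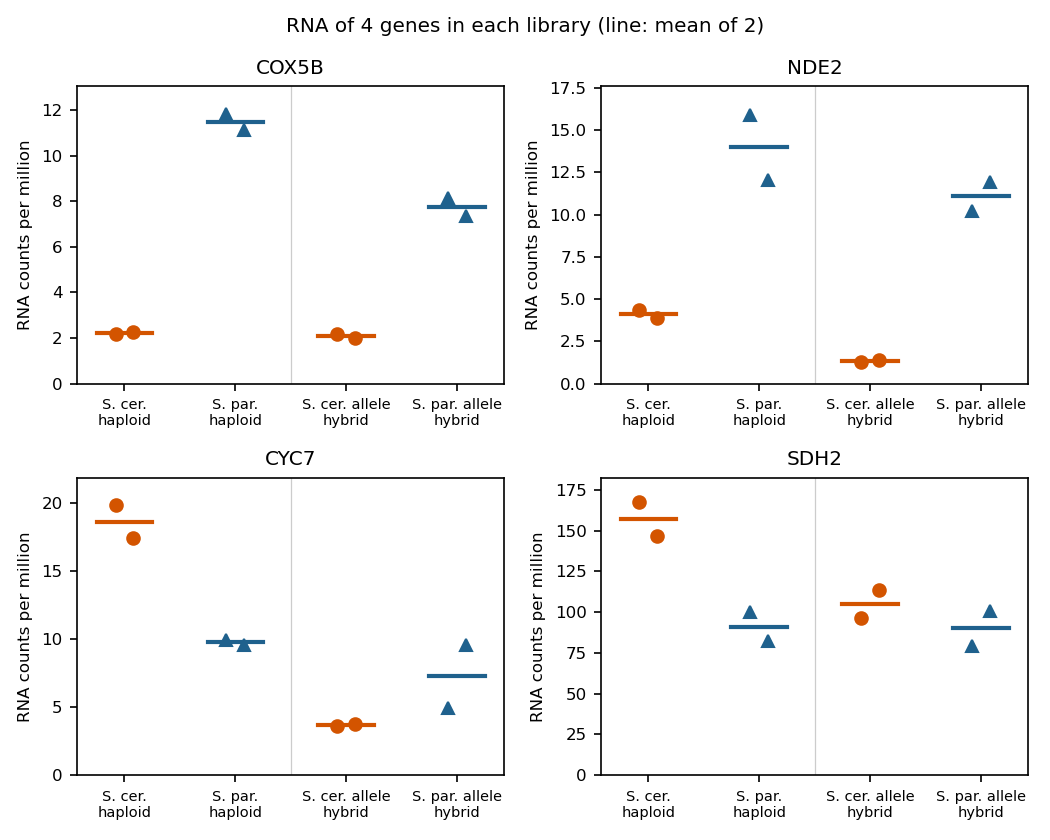
RNA level in CPM of COX5B, NDE2, CYC7 and SDH2 in each library (points) with the mean of 2 (lines), for S. cerevisiae (circles) and S. paradoxus (triangles), haploids left and hybrid alleles right of the divider. COX5B and NDE2 keep the same order in haploids and hybrid, CYC7 is higher in the S. cerevisiae haploid (17.4 to 19.8) and lower as the S. cerevisiae allele (3.62 to 3.74), and SDH2 is closer between alleles than between haploids.

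Cytochrome c oxidase reduces oxygen to water, with its catalytic core made in the mitochondrion and the subunits measured here made from nuclear genes. In haploids 5 of its 8 measured genes were lower in UWOPS05_217_3 (COX4, COX5B, COX6, COX7 and COX13) and none was higher. COX5A, COX8 and COX9 did not pass. That is 62.5% called, beside 54.6% of all genes (28.2% higher and 26.4% lower), and the share between alleles was 62.5%, beside 68.6%. Between alleles COX5B, COX6, COX7 and COX13 were lower from S. cerevisiae and COX8 was higher (log2 0.23, lost without the library block with adjusted p = 0.0901). COX5B (YIL111W, chrIX:155222-155765) had the largest haploid difference of the 33 genes. Its levels were 2.16 and 2.27 CPM in UWOPS05_217_3, 11.8 and 11.1 CPM in CBS432, 2.15 and 2.01 CPM for the S. cerevisiae allele and 8.14 and 7.37 CPM for the S. paradoxus allele. All S. cerevisiae values lay between 2.01 and 2.27 CPM, in haploid and hybrid alike, and the species did not overlap in either. The log2 ratio was -2.39 ± 0.23 in haploids (5.24-fold, edgeR adjusted p = 0.000101) and -1.90 ± 0.37 between alleles (3.72-fold, adjusted p = 2.27e-06), and their difference did not pass (-0.48 ± 0.38, adjusted p = 0.382).

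COX5A (YNL052W, chrXIV:531726-532187), the form of ample oxygen, was far more abundant. It had 462 and 457 CPM in UWOPS05_217_3, 489.6 and 556 CPM in CBS432, 442 and 468 CPM for the S. cerevisiae allele and 460.5 and 489 CPM for the S. paradoxus allele. Neither ratio passed (log2 -0.20 ± 0.10, edgeR adjusted p = 0.127, and -0.06 ± 0.04, adjusted p = 0.155). COX5A and COX5B are paralogs, and COX5B counts are few (73 to 1189 per table), so shared reads would weigh more on COX5B.

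COX7 (YMR256C, chrXIII:778945-779127), a small subunit, had 98.9 and 94.4 CPM in UWOPS05_217_3 and 183 and 156 CPM in CBS432. Its alleles had 96.0 and 92.1 CPM (S. cerevisiae) and 158 and 146 CPM (S. paradoxus). Both settings gave nearly the same ratio, log2 -0.82 ± 0.10 (edgeR adjusted p = 0.000316) and -0.69 ± 0.07 (adjusted p = 9.78e-18). COX13 was lower by 0.73 in haploids (log2 -0.73) and 0.47 between alleles (log2 -0.47), and it was the only listed gene whose S. paradoxus allele changed in the hybrid against haploid CBS432. That change was log2 -0.38 (adjusted p = 0.0128), lost without CBS432 replicate 2 (adjusted p = 0.0509) or hybrid replicate 2 (adjusted p = 0.056). COX4 passed in haploids at -0.25 (edgeR), a call lost with table totals in place of TMM (-0.23, adjusted p = 0.061). The COX4 call was also lost without UWOPS05_217_3 replicate 2 (-0.19) or CBS432 replicate 1 (-0.25) or 2 (-0.26). Its allele ratio was 0.03, and the difference of -0.26 was lost without the replicate block, all libraries kept (adjusted p = 0.14), and in the 6 fits that also leave out a library (adjusted p between 0.0517 and 0.424).

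The ATP synthase couples proton flow to ATP production, with a catalytic head (ATP1 alpha, ATP2 beta, ATP3 gamma, ATP16 delta, ATP15 epsilon) joined by a stalk and a membrane part. The head was uneven between the species: ATP1 was higher in UWOPS05_217_3, ATP15 (without CBS432 replicate 1, adjusted p = 0.112) and ATP16 were lower, and ATP2 and ATP3 did not pass. ATP1 (YBL099W, chrII:37053-38690) had 1054 and 1070 CPM in UWOPS05_217_3, 804 and 886 CPM in CBS432, 1066 and 1128 CPM for the S. cerevisiae allele and 897 and 926 CPM for the S. paradoxus allele. The species did not overlap in either setting. The allele ratio was log2 0.27 ± 0.03 (edgeR adjusted p = 3.38e-16), and the haploid ratio of 0.31 ± 0.11 (adjusted p = 0.0376) was lost with each of the 4 libraries left out (0.23 to 0.40, adjusted p between 0.0514 and 0.284).

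At ATP16 the haploid ratio passed and the allele ratio did not, and at ATP3 the reverse held. ATP16 (YDL004W, chrIV:443029-443511) had 315 and 285 CPM in UWOPS05_217_3 and 394 and 364 CPM in CBS432, but 344 and 348 CPM against 341 and 328 CPM between alleles. Its haploid ratio of log2 -0.35 ± 0.09 (edgeR adjusted p = 0.012) was lost without CBS432 replicate 1 (adjusted p = 0.0895), and its allele ratio was 0.05 ± 0.04 (adjusted p = 0.343). ATP3 (YBR039W, chrII:315575-316510) had 527 and 480.2 CPM in UWOPS05_217_3 and 565 and 582 CPM in CBS432, with alleles at 536 and 546 CPM against 497 and 518 CPM. Haploid S. cerevisiae values were the lower ones and S. cerevisiae allele values the higher ones, at log2 -0.20 (not called) and 0.09 (adjusted p = 0.0186, lost in DESeq2 with adjusted p = 0.0818 and without the library block with adjusted p = 0.228). The ratios differed by -0.39 ± 0.08 at ATP16 (adjusted p = 0.00919) and -0.28 ± 0.09 at ATP3 (adjusted p = 0.0424). Without the replicate block, all libraries kept, the call of ATP16 held (adjusted p = 0.0481) and that of ATP3 was lost (adjusted p = 0.11). With no block and a library left out, both passed without UWOPS05_217_3 replicate 1 and in none of the other 5 cases, with adjusted p up to 0.314 and 0.428.

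In the stalk and membrane part, ATP7 (subunit d) and ATP20 (subunit g, which joins ATP synthases into dimers) were lower from S. cerevisiae in both settings. Their log2 ratios were -0.73 and -0.78 in haploids and -0.70 and -0.53 between alleles (edgeR adjusted p = 0.000411 and 0.000274 in haploids and 9.81e-36 and 5.48e-14 between alleles). ATP5, the oligomycin-sensitivity subunit at the top of the stalk, was higher from the S. cerevisiae allele by log2 0.18 and did not pass in haploids (-0.05). ATP4 (subunit b) and ATP14 (subunit h) passed in neither.

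Against its own haploid, the S. cerevisiae allele was lower in the hybrid at CYC7, NDE2 and SDH2 and higher at QCR2, CYT1 and ATP16 (edgeR, 18.2% of the 33 genes, beside 22.8% of all genes, 11.5% higher and 11.3% lower). The rises were small, each log2 0.29, and with table totals in place of edgeR's TMM scaling none of them passed while 5 genes were lower. They were also lost without hybrid replicate 1 or 2 or UWOPS05_217_3 replicate 2 (adjusted p between 0.0516 and 0.285). SDH2 stood at -0.50 ± 0.11 (adjusted p = 0.0154), lost without UWOPS05_217_3 replicate 1 (adjusted p = 0.0569) or hybrid replicate 1 (adjusted p = 0.118). The S. paradoxus allele changed at 1 gene, COX13 (3.03% of the 33 genes, beside 7.17% of all genes, 2.26% higher and 4.9% lower).

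Chromatin at the 25 NFRs was examined next, first between haploid strains. Of these NFRs, 4 were more open in UWOPS05_217_3 than in CBS432 (COX5B, SDH2, ATP3 and COX12), 3 were less open (SDH4, ATP5 and COX13), and 18 did not pass (edgeR, 28.0% beside 20.4% of all NFRs, 10.8% more and 9.58% less open). The 4 more open NFRs fell to 1, COX5B, without UWOPS05_217_3 replicate 2 or CBS432 replicate 2, and to 2 without CBS432 replicate 1. Against DBVPG1373 none was more open and 4 were less open in S. cerevisiae (SDH4, COX13, ATP4 and ATP5), 16.0% beside 8.23% of all NFRs (4.26% more and 3.97% less open). That none was more open did not hold in DESeq2 (2), with a replicate block (3) or without DBVPG1373 replicate 1 (2) or 2 (3), and the 4 less open fell to 0 without CBS432 replicate 1 and to 1 without replicate 2. Both comparisons use the same CBS432 libraries, so they are not independent. Between the S. cerevisiae strains 0 of the 25 NFRs passed by edgeR and 0 by DESeq2, and 0.114% of all NFRs passed in edgeR. None of the 25 had an unadjusted p under 0.05 in edgeR, beside 156 of all 3498 NFRs. With a replicate block, or without DBVPG1373 replicate 2, 1 of the 25 passed.

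In the hybrids, where both alleles share a nucleus, most of the called NFRs were more open on the S. cerevisiae allele. Haploids were fitted without a block and alleles with one, so their numbers of calls are not alike. With a replicate block, 10 NFRs (1010 of all) were called between UWOPS05_217_3 and CBS432 haploids and 7 (736 of all) between DBVPG1373 and CBS432. Without a block, 6 (456 of all) and 9 (816 of all) were called between alleles of the UWOPS05_217_3 and DBVPG1373 hybrids. In UWOPS05_217_3-CBS432, 8 of 25 were more open on the S. cerevisiae allele and 2 less (edgeR, 40.0% beside 24.8% of all NFRs, 15.1% more and 9.69% less open). In DBVPG1373-CBS432, 10 were more open and 3 less (52.0% beside 29.8%, 17.5% more and 12.3% less open). Without the library block the more open NFRs were 4 in the first hybrid and 6 in the second. The median log2 allele ratio of the 25 NFRs was 0.29 and 0.48, against 0.09 over all NFRs in each hybrid. The hybrids were separate crosses with separate libraries, but both had CBS432 as the S. paradoxus parent. Of the 10 NFRs called in the first, 9 were called in the second (90.0%, and 69.2% of the 13 called there), all in the same direction. Over all NFRs these shares were 67.0% and 55.6%. Without the library block, ATP3, ATP7, QCR8 and QCR10 were lost in the first hybrid, and COX9, NDI1, QCR6 and SDH2 in the second. The NFRs called in both hybrids were then ATP5, COX5B, COX12 and COX13. The overlap over all NFRs was not computed without the block.

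**Figure D4:**
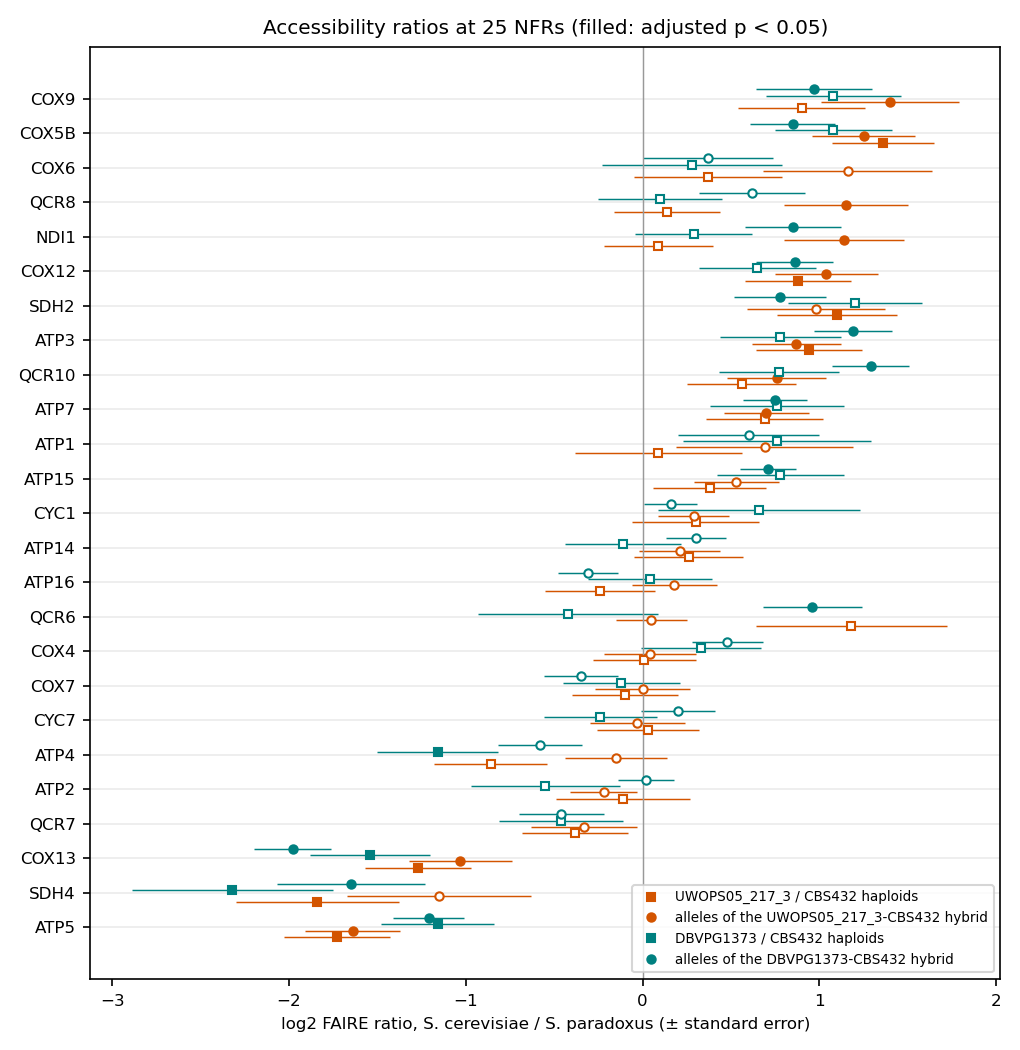
Log2 FAIRE ratios of S. cerevisiae over S. paradoxus (± standard error) at 25 NFRs in haploids (squares) and between hybrid alleles (circles), for the UWOPS05_217_3 cross (orange) and the DBVPG1373 cross (green), filled where edgeR's adjusted p is under 0.05. ATP5, SDH4 and COX13 lie left of 0 in all 4 comparisons and COX9, COX5B, COX12, SDH2 and ATP3 lie right of 0 in all 4.

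The NFR of ATP5 (YDR298C, NFR chrIV:1058908-1059041) was the clearest case of a more open S. paradoxus promoter. Its FAIRE level was 176 and 117 CPM in UWOPS05_217_3, 228 and 192 CPM in DBVPG1373, and 556 and 429 CPM in CBS432. In the hybrids the S. cerevisiae alleles had 179 and 248 CPM (UWOPS05_217_3) and 274 and 219 CPM (DBVPG1373), against S. paradoxus alleles of 572 and 759 CPM and 626 and 515 CPM. Every S. paradoxus value lay above every S. cerevisiae value. The log2 ratios were -1.73 ± 0.30 and -1.16 ± 0.32 in haploids (edgeR adjusted p = 0.000369 and 0.0382) and -1.64 ± 0.27 and -1.21 ± 0.20 between alleles (adjusted p = 9.74e-08 and 0.00168). The DBVPG1373 haploid call was lost without CBS432 replicate 1 (adjusted p = 0.285) or 2 (adjusted p = 0.138).

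COX13 (YGL191W, NFR chrVII:144463-144832), which encodes a regulatory subunit of complex IV, had the same direction. Haploid levels were 253 and 168 CPM in UWOPS05_217_3, 231 and 123 CPM in DBVPG1373 and 549.7 and 474 CPM in CBS432. Alleles of the UWOPS05_217_3 hybrid were at 259 and 189 CPM against 355 and 580 CPM, and alleles of the DBVPG1373 hybrid at 142 and 136 CPM against 551 and 544 CPM. The S. paradoxus side was higher throughout, at log2 -1.27 and -1.54 in haploids and -1.03 and -1.98 between alleles (edgeR adjusted p between 0.000223 and 0.0164). The DBVPG1373 haploid call was lost without CBS432 replicate 1 (adjusted p = 0.0852).

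SDH4 (YDR178W, NFR chrIV:817598-817672) had the widest ratio and the fewest counts, from 32 to 268 per table. Most of this NFR lies beyond the 300 bp upstream of the gene's start at 817950. It stood at 32.7 and 24.1 CPM in UWOPS05_217_3, 24.6 and 12.5 CPM in DBVPG1373 and 100.4 and 104 CPM in CBS432. In the DBVPG1373 hybrid the alleles were at 24.9 and 33.6 CPM against 80.4 and 103 CPM (log2 -1.65 ± 0.42, edgeR adjusted p = 0.0139). In the UWOPS05_217_3 hybrid they were at 39.6 and 33.2 CPM against 46.5 and 138 CPM, and the ratio of -1.15 ± 0.52 did not pass (adjusted p = 0.0902). The haploid ratios were -1.84 ± 0.46 (adjusted p = 0.00672) and -2.32 ± 0.57 (adjusted p = 0.0231). The first was lost without UWOPS05_217_3 replicate 2 (adjusted p = 0.0506), and the second without CBS432 replicate 1 (adjusted p = 0.0852) or 2 (adjusted p = 0.0899). ATP4 (YPL078C, NFR chrXVI:408750-409006) was less open in DBVPG1373, with 182 and 132 CPM against 424 and 312 CPM (-1.16 ± 0.34, adjusted p = 0.0462), which was lost with table totals (adjusted p = 0.0615) and without CBS432 replicate 1 (adjusted p = 0.32) or 2 (adjusted p = 0.135), and it passed in no other comparison.

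COX5B (NFR chrIX:154876-155274) was the opposite of its RNA. Its promoter was more open in S. cerevisiae, with 539 and 470.4 CPM in UWOPS05_217_3 and 479 and 327 CPM in DBVPG1373 against 196 and 202 CPM in CBS432. The S. cerevisiae alleles had 460.3 and 462 CPM and 310.5 and 306 CPM in the hybrids, against S. paradoxus alleles of 242 and 154 CPM and 184 and 158 CPM. No S. paradoxus value reached a S. cerevisiae value. The log2 ratios were 1.36 ± 0.29 (edgeR adjusted p = 0.0024) and 1.08 ± 0.33 (adjusted p = 0.0559) in haploids and 1.25 ± 0.29 (adjusted p = 0.000299) and 0.85 ± 0.24 (adjusted p = 0.0246) between alleles.

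COX9 (YDL067C, NFR chrIV:334394-334668) encodes subunit VIIa and shares its NFR with IDP1. It had 221 and 244 CPM on the S. cerevisiae allele and 73.5 and 106 CPM on the S. paradoxus allele in the UWOPS05_217_3 hybrid (log2 1.40 ± 0.39, edgeR adjusted p = 0.0029), and 114 and 220.3 CPM against 73.8 and 89.6 CPM in the DBVPG1373 hybrid (0.97 ± 0.33, adjusted p = 0.049). In haploids it had 189 and 213 CPM in UWOPS05_217_3, 264 and 169 CPM in DBVPG1373 and 97.4 and 121 CPM in CBS432, which did not pass (0.90 and 1.08). The allele excess thus stood in each hybrid library, and the second call was lost in DESeq2 (adjusted p = 0.0626), with TMM scaling (adjusted p = 0.0648) and without the library block (adjusted p = 0.0671). COX12, subunit VIb, was more open by log2 1.04 and 0.86 between alleles. Its haploid ratio of 0.88 (adjusted p = 0.0351) was lost with table totals (adjusted p = 0.0522), without UWOPS05_217_3 replicate 2 (adjusted p = 0.2) and without CBS432 replicate 1 (adjusted p = 0.1) or 2 (adjusted p = 0.152).

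ATP3 (NFR chrII:315203-315357) had 660.3 and 691 CPM in UWOPS05_217_3, 505 and 654 CPM in DBVPG1373 and 391 and 328 CPM in CBS432. Its S. cerevisiae alleles had 704 and 678 CPM against 315 and 457 CPM in the first hybrid and 1097 and 649 CPM against 351 and 389 CPM in the second. S. cerevisiae values were higher throughout, with log2 allele ratios of 0.87 ± 0.25 and 1.19 ± 0.22 (edgeR adjusted p = 0.00436, or 0.057 without the library block, and 0.00311). The haploid ratio of 0.94 ± 0.30 in the UWOPS05_217_3 comparison (adjusted p = 0.0279) was lost without UWOPS05_217_3 replicate 2 (adjusted p = 0.101) and without CBS432 replicate 1 (adjusted p = 0.124) or 2 (adjusted p = 0.166).

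SDH2 (NFR chrXII:53942-54207) had 228 and 229.6 CPM in UWOPS05_217_3, 320.3 and 174 CPM in DBVPG1373 and 118 and 100.5 CPM in CBS432. Its alleles were at 232 and 176 CPM against 101 and 104 CPM in the UWOPS05_217_3 hybrid and at 192 and 319.5 CPM against 131 and 160.3 CPM in the DBVPG1373 hybrid. All values of S. cerevisiae exceeded those of S. paradoxus. The haploid UWOPS05_217_3 ratio of log2 1.10 ± 0.34 (edgeR adjusted p = 0.0252) was lost without UWOPS05_217_3 replicate 2 (adjusted p = 0.116) and without CBS432 replicate 1 (adjusted p = 0.0778) or 2 (adjusted p = 0.104). The allele ratio passed in the DBVPG1373 hybrid (0.78 ± 0.26, edgeR adjusted p = 0.0455) and narrowly missed in the other (0.98 ± 0.39, adjusted p = 0.051). The DBVPG1373 call was lost in DESeq2 (adjusted p = 0.0632), with TMM scaling (adjusted p = 0.0659) and without the library block (adjusted p = 0.0705).

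In complex III, QCR8 (YJL166W, NFR chrX:106028-106212) had 335 and 211 CPM on the S. cerevisiae allele and 189.6 and 74.4 CPM on the S. paradoxus allele in the UWOPS05_217_3 hybrid (log2 1.15 ± 0.35, edgeR adjusted p = 0.00691). The alleles of the DBVPG1373 hybrid, at 229.6 and 165 CPM against 116 and 138 CPM, did not pass (0.62), nor did the haploids (0.14 and 0.10), and the first value was lost without the library block (adjusted p = 0.11). QCR10 (YHR001W-A, NFR chrVIII:107521-107822) was more open on the S. cerevisiae allele in both hybrids. It had 608 and 394 CPM against 304 and 274 CPM in the UWOPS05_217_3 hybrid (0.76, edgeR adjusted p = 0.0264). In the DBVPG1373 hybrid it had 502 and 586 CPM against 239 and 205 CPM (1.29, adjusted p = 0.00179). The first call was lost in DESeq2 (adjusted p = 0.0659), with TMM scaling (adjusted p = 0.0594) and without the library block (adjusted p = 0.0908). NDI1 was also more open on the S. cerevisiae allele in both hybrids (1.14 and 0.85, the second lost without the library block with adjusted p = 0.0825). The haploid ratios of NDI1, 0.09 and 0.29, did not pass. The NFR of QCR6 varied more between replicates than between species, with 198 and 1290 CPM in the UWOPS05_217_3 haploids, so its call in the DBVPG1373 hybrid (0.96, adjusted p = 0.025, lost without the library block with adjusted p = 0.112) stands beside a value of 0.05 in the other hybrid.

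The NFRs of the cytochromes c did not pass in any comparison. CYC1, the main isoform in glucose with ample oxygen, had 931 and 1156 CPM in UWOPS05_217_3, 556 and 1966 CPM in DBVPG1373 and 1067 and 687 CPM in CBS432. FAIRE levels are summed over an NFR and not divided by its width. The NFR of CYC1 spans 966 bp and that of CYC7 469 bp, so their levels are not compared with each other. The alleles of CYC1 were at 878 and 1497 CPM against 810.0 and 1086 CPM in the UWOPS05_217_3 hybrid and at 1505 and 822 CPM against 1174 and 851 CPM in the DBVPG1373 hybrid. CYC7, which shares its NFR with UTR4, had 476 and 339 CPM in UWOPS05_217_3 and 413 and 389.8 CPM in CBS432, and 455 and 319 CPM against 451 and 334 CPM between alleles. The haploid ratio of CYC7 was log2 0.03 ± 0.29 and its allele ratio -0.03 ± 0.27 (edgeR adjusted p = 0.962 and 0.967), while its RNA ratio changed sign between haploids and hybrid.

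At no NFR of the 25 did the difference between haploid and allele ratio pass in either cross, by edgeR or by DESeq2. Over all NFRs edgeR called 0.0572% in the UWOPS05_217_3 cross and 0.0% in the DBVPG1373 cross, and DESeq2 called 3 NFRs in each. At an unadjusted p under 0.05 in edgeR there were 2 of the 25 in the first, QCR8 (-1.03 ± 0.42) and NDI1 (-1.08 ± 0.44), and 1 in the second, ATP2 (-0.69 ± 0.30). Over all 3498 NFRs 149 and 164 reached that threshold, so no result is read from these NFRs. The standard errors of these differences were 0.29 to 0.95 on the log2 scale.

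The next question was whether the more open allele also gave more RNA. In the UWOPS05_217_3-CBS432 hybrid, 8 of the 23 genes with both measures were called in both. The direction matched at 3 (ATP3, COX13 and NDI1) and was opposite at 5 (ATP5, ATP7, COX5B, QCR8 and QCR10). Without the library block 4 were called in both, and the direction matched at 2 (COX13 and NDI1) and was opposite at 2 (ATP5 and COX5B). Of all 3641 genes with both measures 589 were called in both with the block, and the direction matched at 46.2% of them. The number over all genes was not computed without the block. In haploids 3 of the 23 listed genes were called in both, COX13 and SDH2 in the same direction and COX5B in opposite directions. Of all 3641 genes 392 were called in both in haploids, and the direction matched at 56.1% of these. The counts over listed genes were not tested against these shares. The NFRs of ATP7 and QCR8 lie mostly outside the 300 bp window, and that of ATP7 is also upstream of PUT3.

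**Figure D5:**
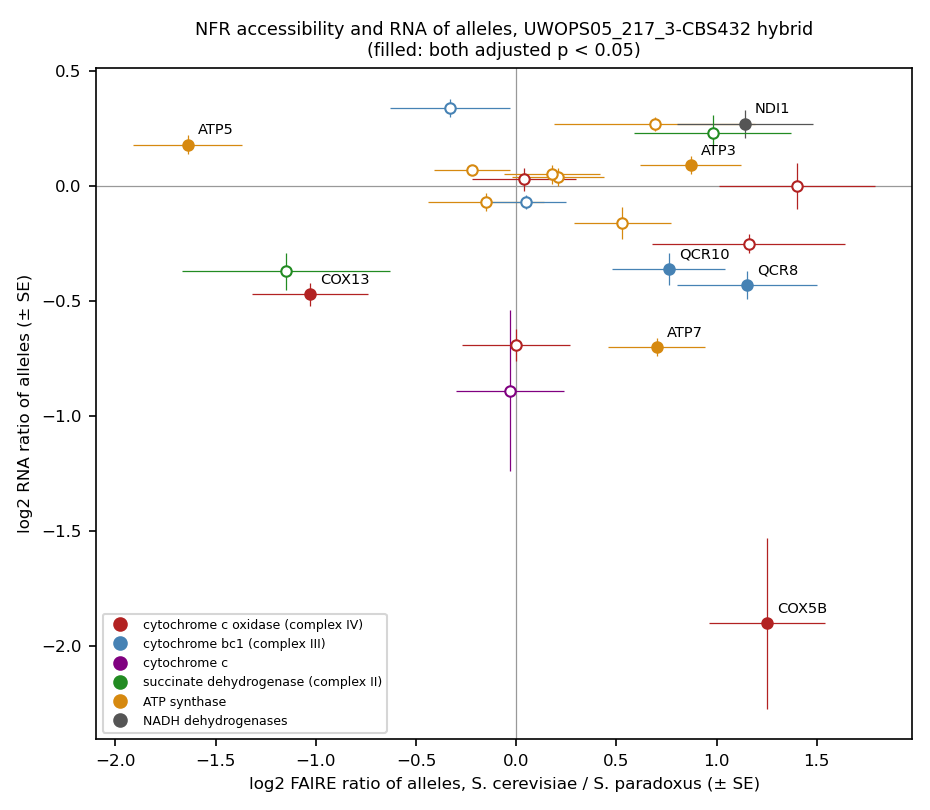
Log2 FAIRE ratio (horizontal) and log2 RNA ratio (vertical) of the S. cerevisiae over the S. paradoxus allele in the UWOPS05_217_3-CBS432 hybrid for 23 genes, with standard errors, coloured by complex and filled where both pass edgeR's test. COX5B stands at 1.25 in FAIRE and -1.90 in RNA, and ATP5 at -1.64 in FAIRE and 0.18 in RNA.

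The wider pathway was examined with further lists. Among regulators, HAP4 had 368 and 351 CPM in haploid UWOPS05_217_3, 533 and 519 CPM in CBS432, 602 and 505 CPM for the S. cerevisiae allele and 648 and 573 CPM for the S. paradoxus allele. It was lower in haploid UWOPS05_217_3 than in CBS432 (log2 -0.56 ± 0.09, edgeR adjusted p = 0.00111) and its S. cerevisiae allele was higher in the hybrid than in the haploid (0.71 ± 0.10, adjusted p = 0.00244). ROX1, the repressor of low-oxygen genes such as COX5B, was lower in haploid UWOPS05_217_3 (-0.51 ± 0.15, adjusted p = 0.0197) while its S. cerevisiae allele gave more RNA (0.43 ± 0.04, adjusted p = 1.94e-18). HAP2 was lower (-0.34), HAP5 higher (0.38), and HAP3 did not pass. HAP1, a heme-dependent activator of CYC1 and CYC7, was not analysed here. Of 35 factors for assembly and mitochondrial translation of the complexes, 7 were higher and 12 lower in haploid UWOPS05_217_3 (54.3%, beside 54.6% of all genes), and 12 and 8 between alleles (57.1%, beside 68.6%). Of 8 ubiquinone synthesis genes 2 were higher and 2 lower in haploids (50.0%), and 1 and 5 between alleles (75.0%). Of 3 further ATP synthase genes 1 was higher and 1 lower in both comparisons (66.7%).

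Genes that rise when glucose runs out were read as a sign of growth state. Of 8 such genes 3 were higher and 5 lower in haploid UWOPS05_217_3 than in CBS432, and 2 higher and 6 lower between alleles, beside 54.6% and 68.6% of all genes called. In haploids the higher ones were ACS1 (log2 4.12), HXK1 (2.01) and ICL1 (1.23), and the lower ones ran from -0.61 (JEN1) to -2.08 (PCK1). For the S. cerevisiae allele against its haploid, 2 of the 8 were lower and none was higher (25%, beside 22.8% of all genes, 11.5% higher and 11.3% lower). The lower ones were HXK1, a hexokinase repressed by glucose (log2 -2.71 ± 0.19, edgeR adjusted p = 4.74e-05), and ICL1, of the glyoxylate cycle (-0.67 ± 0.13, adjusted p = 0.00844). For the S. paradoxus allele edgeR called 0 of 8, beside 7.17% of all genes. At an unadjusted p under 0.05 there were also 0 of 8, beside 1028 of all 4995 genes. The summed level of the 8 genes was 498 and 424 CPM in haploid UWOPS05_217_3 and 109 and 138 CPM for its allele in the hybrid, against 184 and 218 CPM in CBS432 and 162 and 256 CPM for the S. paradoxus allele. The sum was highest in haploid UWOPS05_217_3, where HXK1 made up most of it (401 and 329 CPM). HXK1 had 100.2 and 78.6 CPM in CBS432, 41.5 and 63.4 CPM for the S. cerevisiae allele and 77.5 and 146 CPM for the S. paradoxus allele. Without HXK1 the sum was 96.6 and 95.7 CPM in haploid UWOPS05_217_3, which lay within the 84.2 and 140 CPM of CBS432. The part of growth state in the RNA results was not tested.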

How the data were processed

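Per the labels and the study's methods, each haploid culture was divided between FAIRE and RNA-seq, and the authors mapped reads with BWA to strain genomes, and hybrid reads to the 2 parental genomes combined. The build named is sacCer3 (R64), and versions are not given in the sources used here. The deposited tables hold raw counts, which the authors summed across each gene or NFR with samtools, without normalization, 1 table per library or per hybrid allele. There were 32, and 24 were used, with 20 libraries in all in the series. The 8 RNA tables of the DBVPG1373 cross were not used. The CBS432 FAIRE libraries have a table for each cross.

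Counts were tested with edgeR 4.0.16 in R 4.3.3 (quasi-likelihood F-test, Benjamini-Hochberg adjustment over all 4995 genes or 3498 NFRs, threshold 0.05, no filter on low counts). Haploids, and each allele against its haploid, were scaled by TMM. Alleles were compared within libraries (library block), both with 1 library size. The difference of haploid and allele ratios was an interaction term with table totals and a replicate block, as the study's model has it. Standard errors are the log2 value over the root of F. Positive values mean more in S. cerevisiae (UWOPS05_217_3 between strains) or, for an allele against its haploid, more in the hybrid. Alternatives were DESeq2 1.42.0, another scaling, the block added or removed, a mean count of at least 100, and each library left out. The code was tested on simulated data. edgeR was used in place of the study's DESeq. The p-values rest on 2 biological replicates per group. The very small adjusted p-values of RNA between alleles come from the fit with the library block. The largest under the alternatives were 8.58e-05 at SDH3, 0.00504 at QCR2 and 0.0101 at ATP1. Depth per table is given in the report.

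All 38 listed genes are accounted for. By rule, values per library are given for COX5A, COX5B, CYC1, CYC7, the NADH dehydrogenases and, in each direction and comparison, up to 3 called genes of largest change, and up to 3 examples per direction are named for changes of an allele against its haploid. HAP4 is given as a regulator, and HAP1, also in the rule, was not analysed here. The members and lists were chosen with earlier results of these data known. Gene positions are those of the tables: of the 33 with RNA counts, 31 have the same start and end in RefSeq R64, and the others differ by 1 bp. NFR coordinates are as in the tables. COX12 and CYC1 NFRs were placed from RefSeq R64 gene starts. No listed gene overlapped another gene of that table. The NFRs of COX6, CYC7, ATP14, COX9, ATP2 and ATP7 also lie upstream of another gene. Promoter sequences and motifs were not used here. Whether the RNA counts use strand is not given in the sources used here.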

Additional observations from a re-analysis of the deposited data

Results flagged for a closer look

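These genes have an RNA ratio between UWOPS05_217_3 and CBS432 that differs between haploids and hybrid alleles, by edgeR's interaction test. The haploid ratio was above the allele ratio, on the log2 scale, at CYC7 (1.82), NDE2 (1.30), SDH2 (0.57), SDH4 (0.49) and SDH1 (0.35), and below it at ATP16 (-0.39), QCR7 (-0.37), ATP3 (-0.28) and COX4 (-0.26). None of these 9 calls held under every alternative.

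The next 2 were flagged because all samples moved one way in haploids and the opposite way in the hybrid, a difference that the interaction test did not call. Such a pattern of signs was present at 6 of the 33 genes and, in the DBVPG1373 cross, at 1 of the 25 NFRs. Its share over all genes or NFRs was not computed, so no result is read from it. ATP14 RNA was lower in both UWOPS05_217_3 haploid libraries and higher from the S. cerevisiae allele in both hybrid libraries, with a difference of -0.22 (adjusted p = 0.0839). The CYC7 NFR was less open in both DBVPG1373 haploid libraries and more open on its allele in both DBVPG1373 hybrid libraries, with a difference of -0.51 (adjusted p = 0.915).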

How the results depend on the processing

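Total counts of called listed genes stayed within 1.5 times of the reported value under every alternative for RNA between haploids (13 to 20, reported 19), RNA between alleles (18 to 26, reported 26), FAIRE between DBVPG1373 hybrid alleles (reported 13) and FAIRE interactions (0). Counts by direction moved further: genes higher in haploid UWOPS05_217_3 fell from 4 to 2 with 3 of the 4 libraries left out, and without the library block genes higher from the S. cerevisiae allele fell from 10 to 5, and NFRs more open on it from 10 to 6 in the DBVPG1373 hybrid.

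RNA interaction calls (reported 9) were 15 with TMM scaling (5 higher and 10 lower, against 5 and 4), 4 with no replicate block (620 genes in all against 1295), and 0 to 5 with a library left out (166 to 664 genes; 5 without UWOPS05_217_3 replicate 1, 0 without CBS432 or hybrid replicate 2, 1 otherwise). The NDI1 interaction, 0.04 and not called, was -0.035 with TMM and -0.063 to 0.15 with a library left out. For the S. cerevisiae allele against its haploid (reported 6, 3 up and 3 down), DESeq2 gave 5 up, table totals gave 0 up and 5 down, and libraries left out gave 2 to 4 (2 without hybrid replicate 1 or haploid replicate 2, 3 without hybrid replicate 2). For the S. paradoxus allele (reported 1), DESeq2 gave 4 (593 genes against 358) and libraries left out 0 to 1 (0 without CBS432 replicate 2). FAIRE calls with libraries left out were 4 to 8 between UWOPS05_217_3 and CBS432 (reported 7, and 4 without replicate 2 of either strain, 399 NFRs at the lowest against 712) and 0 to 8 between DBVPG1373 and CBS432 (reported 4, 8 without DBVPG1373 replicate 2, 0 and 1 without CBS432 replicate 1 and 2, with 80 to 639 NFRs in all against 288, and 474 by DESeq2). With table totals the first split was 3 up and 4 down against 4 and 3. Between S. cerevisiae strains 0 to 1 was called (1 without DBVPG1373 replicate 2), and DESeq2 called 19 NFRs of all against 4. The FAIRE interaction medians over all NFRs moved from -0.10 to 0 and from -0.16 to 0 with TMM.

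Replicate numbers are shared between groups, but no label says that they mark a batch, and 2 pairs are too few to show it. Deviations from group means correlated between same-numbered libraries at 0.137 to 0.483. A replicate block raised calls from 6 to 11 (S. cerevisiae allele against haploid, 1863 genes), from 1 to 2 (S. paradoxus allele), from 4 to 7 (DBVPG1373 against CBS432, 736 NFRs) and from 0 to 1 (between strains, 112 NFRs). Removing the library block lowered FAIRE calls between UWOPS05_217_3 hybrid alleles from 10 to 6 (456 NFRs against 866). Allele comparisons leave no residual degrees of freedom without a hybrid library and were not run so. Interactions with a library left out have no block, so their changes cannot be put down to the library alone. Cause was not tested for any of these changes. FAIRE tables held 1339393 to 4198250 counts, and the NFR of SDH4 rests on 32 to 268 per table. RNA of NDE2 rests on 51 counts in 1 allele table and that of COX5B on 73.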
